A study of Ovis aries with 30 samples.

Results

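The 10 genes described here belong to the Hippo pathway: the transcription factors TEAD4, TEAD1 and TEAD3, their coactivators YAP1 and WWTR1 (also called TAZ), the competing cofactor VGLL4, the kinases LATS1 and LATS2, and the upstream proteins AMOTL2 and NF2. They are 10 of the 31304 gene rows measured by RNA sequencing of sheep liver, and all 10 passed the filter on low counts that kept 17840 genes. TEAD4 was chosen because its level was lower in exposed lambs, so its differences between exposed and control lambs are given as a description without a test. The other 9 were chosen by name as partners in the pathway.

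In the Hippo pathway, upstream proteins at cell junctions such as NF2 switch on a kinase chain in which the kinases STK3 and STK4 activate LATS1 and LATS2. Active LATS kinases phosphorylate YAP1 and WWTR1 and keep them out of the nucleus. When the kinases are quiet, YAP1 and WWTR1 enter the nucleus, bind TEAD proteins and switch on target genes such as CCN1 and CCN2. In liver the pathway is known as a brake on organ size and as a control of the balance between hepatocyte and bile duct cell identity. Much of it acts through phosphorylation, which messenger RNA levels do not show.

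Livers came from 30 first-generation lambs, each with its own animal tag. The mothers of 15 lambs were exposed to biosolids, processed sewage sludge spread on pasture, before conception and during pregnancy, and those of the other 15 served as controls. There were 8 control females, 8 biosolids females, 7 control males and 7 biosolids males. The labels give no age, strain, litter or processing batch, so lambs were taken as independent, and p-values measure the spread between them.

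Libraries held 18688079 to 51905219 counts in all. Ribosomal RNA rows took 87.5% of the library of biosolids male 8778 and 0.299 to 7.69% of the other 29. Control male 8408 held 302 CPM (counts scaled to library size) of LOC101112291, an X-linked RNA whose level was 318 to 824 CPM across 16 females and 2.05 CPM or less across the other 13 males. Control female 8263 had the highest summed level of macrophage markers, 2505 CPM where the median of control females was 1156 CPM. The values of TEAD4 and AMOTL2 are also given without these libraries. The liver label was checked against hepatocyte markers, of which 11 of 12 were in the table: ALB, the main plasma protein, averaged 52361 CPM and ranked 4 among all rows.

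TEAD4 lies on chromosome 3 (212610234 to 212676293, minus strand, in assembly ARS-UI_Ramb_v3.0 like all positions given) and encodes a DNA-binding partner of YAP1 and WWTR1. In control males its level was 19.8 CPM in the lowest lamb, 29.6 CPM at the median and 42.1 CPM in the highest, lamb 8394. In biosolids males the lowest was 14.2 CPM, the median 18.1 CPM and the highest 21.7 CPM. In this sex 5 of 7 exposed lambs lay below every control, and the groups overlapped only between 19.8 and 21.7 CPM. In control females the lowest, median and highest levels were 17.8, 23.2 and 33.5 CPM. In biosolids females they were 15.96, 17.8 and 27.7 CPM, so that 4 of 8 exposed females lay below every control and the groups overlapped over most of their range.

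**Figure D1:**
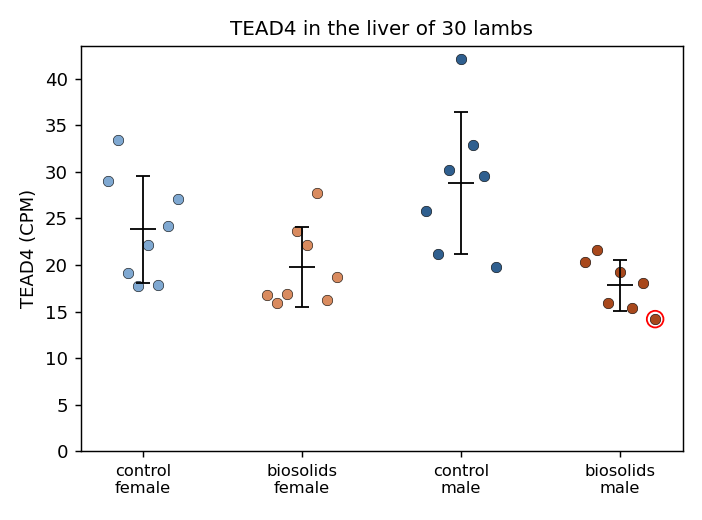
TEAD4 in CPM (y axis, from 0) for each lamb (points) in the 4 groups (x axis), with the mean and SD of each group as black bars and lamb 8778 ringed in red. The 7 biosolids males lie between 14.2 and 21.7 CPM, and 5 of the 7 control males lie above all of them.

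As group means, control males had 28.8 ± 7.58 CPM of TEAD4 and biosolids males 17.8 ± 2.76 CPM (SD, n = 7 each). The corresponding levels in females were 23.8 ± 5.71 CPM without and 19.8 ± 4.31 CPM with exposure (SD, n = 8 each). Ordered from high to low, the groups were control males, control females, biosolids females and biosolids males. Neighbours in this order differed by 4.97, 4.05 and 1.94 CPM, each less than the larger SD of the pair, whereas the ends of the order were 10.96 CPM apart. The fitted log2 fold changes were -0.68 in males, -0.27 in females and -0.48 over both sexes.

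The male difference was -0.64 without biosolids male 8778, -0.65 without control male 8408 and -0.57 without control male 8394, the lamb with most TEAD4. The female difference was -0.18 without control female 8263. Library 8778 held 40 reads of TEAD4, which gives 10.1 to 19.3 CPM as an exact 95% Poisson interval that covers counting error only. TEAD4's share of the counts of the 4 TEAD rows put the groups in a similar order. This share rests on the same TEAD4 counts that guided the choice, so it is not an independent measure. It was 27.5 ± 5.58% in control and 20.6 ± 1.41% in biosolids males (SD, n = 7 each), and 27.0 ± 5.22% in control and 22.5 ± 2.68% in biosolids females (SD, n = 8 each).

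A long non-coding RNA on the opposite strand, LOC132659496, shares 618 of the 8045 exon bases of TEAD4, or 7.68%, and reads there cannot be told apart without strand information. It was far below TEAD4, at 0.804 ± 0.329 CPM in control and 0.859 ± 0.427 CPM in biosolids males (SD, n = 7 each). In females it was at 1.16 ± 0.527 CPM in control and 0.855 ± 0.280 CPM in biosolids lambs (SD, n = 8 each). No other member shared exon bases with another row.

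Levels of other cell types were looked at beside TEAD4, since whole liver was sequenced and fewer cells of a type cannot be told apart from less RNA per cell. Of 12 cholangiocyte markers 11 were in the table, all with counts. Their summed level was 570 to 725 CPM in control males, 350 to 736 CPM in biosolids males, 331 to 574 CPM in control females and 349 to 672 CPM in biosolids females. All 12 stellate cell and fibroblast markers had counts, and their sum was 452 to 702 CPM in control males, 260 to 660 CPM in biosolids males, 257 to 424 CPM in control females and 272 to 713 CPM in biosolids females. Both lists spread widely in exposed males. The mean sum was highest in control males, the group with most TEAD4, for every list described here except macrophage markers. With group means subtracted, the r of TEAD4 was 0.11 with cholangiocyte and 0.08 with stellate cell and fibroblast markers. The endothelial list, with 10 of 12 markers in the table, lay between 881 and 1433 CPM in all lambs, and the mesothelial list, with 7 of 8, between 58.9 and 152 CPM. Of 12 macrophage markers 11 were in the table and 10 had counts, with a sum between 933 and 2505 CPM. CD68 had no counts in any lamb. Hepatocyte markers summed to 97999.8 to 130953 CPM in control and 72017.4 to 121980 CPM in biosolids males. In males 11 of 11 had a fitted log2 fold change below 0 with a median of -0.23, where 48.7% of all genes were below 0. Without lamb 8778 it was 10 of 11 with a median of -0.19. Over both sexes the medians were -0.07 for hepatocyte, 0.25 for cholangiocyte, 0.10 for stellate cell and fibroblast, -0.07 for endothelial, -0.14 for macrophage and -0.09 for mesothelial markers. Directions were mixed: above 0 were 2 of 11 hepatocyte, 6 of 11 cholangiocyte and 8 of 12 stellate cell and fibroblast markers. The same held for 4 of 10 endothelial, 3 of 10 macrophage and 2 of 6 mesothelial markers. Of these genes 0 passed by edgeR, DESeq2 or limma voom, where edgeR called 0% of all genes. At an unadjusted p under 0.05 over both sexes there were 5 of 11 cholangiocyte, 1 of 12 stellate cell and fibroblast and 1 of 6 mesothelial markers, where 4.3% of all genes were. Within females 11 of 12 stellate cell and fibroblast markers were above 0 with a median of 0.26, 8 of 11 cholangiocyte markers with a median of 0.35, and 1 of 10 macrophage markers with a median of -0.26. Of all genes 54.1% were below 0 in females. Without lambs 8778 and 8263 together, 4 of 10 macrophage markers were above 0 in females with a median of -0.03. Within males the medians were -0.06 for stellate cell and fibroblast markers, 0.42 for the 6 mesothelial markers tested and 0.04 for cholangiocyte markers, or 0.09 without lamb 8778. Above 0 in males were 6 of 12, 4 of 6 and 6 of 11 of these, where 51.3% of all genes were. The part of these cell types in the TEAD4 difference was not tested.

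Sex was a comparison that did not enter the choice of TEAD4. The question was whether males and females differ when control and exposed lambs are averaged. TEAD4 stood at 23.3 ± 7.90 CPM in the 14 males and 21.8 ± 5.32 CPM in the 16 females (SD), a log2 fold change of 0.07 ± 0.11 (SE, adjusted p = 0.747, Benjamini-Hochberg, from the quasi-likelihood test of edgeR). The medians were 20.7 CPM in males and 20.6 CPM in females, and 7 of 14 males lay above the female median.

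TEAD1 and TEAD3, paralogues of TEAD4 that bind the same kind of site, are described next. TEAD1 (chromosome 15, 39526294 to 39795230, minus strand) averaged 35.4 ± 6.87 CPM in control and 33.0 ± 8.21 CPM in biosolids males (SD, n = 7 each). In females it was at 29.6 ± 6.02 CPM without and 32.4 ± 3.37 CPM with exposure (SD, n = 8 each). Its log2 fold change with exposure was -0.09 ± 0.15 in males and 0.13 ± 0.14 in females (SE, edgeR adjusted p = 0.900 and 1.0). TEAD3 (chromosome 20, 9562888 to 9585991, minus strand) had the smallest p for exposure in males among the 9 members tested. It ranged from 22.4 to 38.1 CPM with a median of 25.9 CPM in control males and from 17.1 to 32.6 CPM with a median of 22.7 CPM in biosolids males. The log2 fold change was -0.26 ± 0.15 (SE, edgeR adjusted p = 0.816). In females its log2 fold change was 0.06 ± 0.14 (SE), and its groups overlapped in both sexes.

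YAP1 (chromosome 15, 6195390 to 6336160, minus strand), the main coactivator of TEAD proteins, did not pass the test for exposure. Control males ranged from 65.2 to 80.3 CPM with a median of 69.8 CPM, and biosolids males from 40.5 to 87.8 CPM with a median of 72.9 CPM, where the lowest value came from lamb 8778. The log2 fold change was -0.06 ± 0.13 in males and 0.05 ± 0.12 in females (SE), and -0.0045 ± 0.0909 over both sexes (edgeR adjusted p = 1.0). WWTR1 (chromosome 1, 239215896 to 239362634, plus strand), the paralogue of YAP1, was highest in biosolids females, where it ran from 6.79 to 19.4 CPM with a median of 13.4 CPM. Control females ran from 6.48 to 16.1 CPM with a median of 11.5 CPM, and the log2 fold change of 0.19 ± 0.18 (SE) in females did not pass (edgeR adjusted p = 1.0). VGLL4 (chromosome 19, 55529178 to 55685233, minus strand), which competes with YAP1 for TEAD proteins, varied least among lambs, with a coefficient of variation of 13.2% over the 30 lambs against 29.2% for TEAD4. Its log2 fold changes were 0.03 ± 0.10 in females and -0.07 ± 0.11 in males (SE).

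Per base of exon, YAP1 was higher than WWTR1 in all 30 lambs, by 2.18 to 10.7 times with a median of 5.38. On the RPKM scale, which is CPM per kilobase of exon, means were 13.5 ± 2.43 for AMOTL2 and 12.6 ± 1.997 for YAP1 (SD, n = 30 each). NF2, TEAD3, LATS2, LATS1 and TEAD2 followed with mean levels between 4.10 and 4.99 RPKM, then TEAD4 at 2.80 ± 0.817 RPKM and WWTR1 at 2.47 ± 0.628 RPKM (SD, n = 30 each). VGLL4 and TEAD1 stood at 0.494 and 0.299 RPKM, but the table gives them exon lengths of 47237 and 108633 bases, far above the 4270 to 10032 bases of the other members, and they are not ranked.

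**Figure D2:**
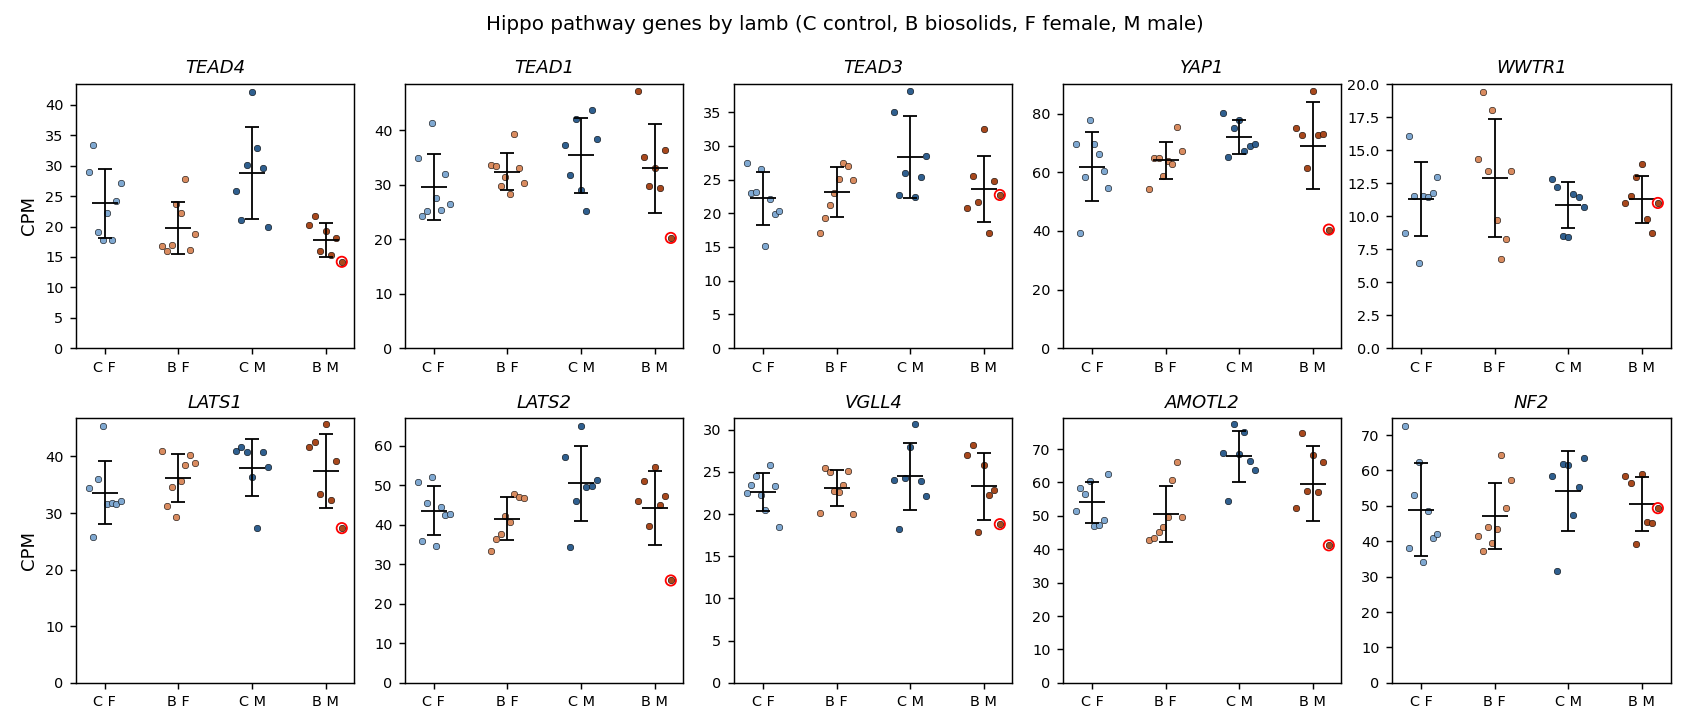
CPM (y axes, each from 0) of the 10 genes in each lamb (points) by group (x axis; C control, B biosolids, F female, M male), with mean and SD as black bars and lamb 8778 ringed in red. Groups overlap for every gene, and lamb 8778 is the lowest of its group for 6 of them, TEAD4, TEAD1, YAP1, LATS1, LATS2 and AMOTL2.

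Among the kinases, LATS2 (chromosome 10, 35896234 to 35941695, plus strand) was lower on average in exposed males without passing the test. Its lowest, median and highest levels were 34.4, 49.8 and 65.0 CPM in control males and 25.9, 46.0 and 54.6 CPM in biosolids males. The log2 fold change was -0.18 ± 0.14 (SE, edgeR adjusted p = 0.827). LATS1 (chromosome 8, 73955736 to 73991798, minus strand) was at 38.0 ± 5.05 CPM in control and 37.5 ± 6.59 CPM in biosolids males (SD, n = 7 each), with a log2 fold change of -0.02 ± 0.12 (SE). NF2 (chromosome 17, 68772724 to 68843739, plus strand), the tumour suppressor merlin, had log2 fold changes of -0.11 ± 0.16 in males and -0.06 ± 0.15 in females (SE). AMOTL2 (chromosome 1, 255605111 to 255622940, plus strand), an angiomotin that binds YAP1 and is itself a target gene of it, was at 67.8 ± 7.57 CPM in control and 59.6 ± 11.2 CPM in biosolids males (SD, n = 7 each). On the log2 scale it differed by -0.18 ± 0.12 in males and -0.10 ± 0.11 in females (SE, edgeR adjusted p = 0.816 and 1.0).

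Taking the members other than TEAD4, 0 of 9 passed for exposure in females, in males or over both sexes by edgeR, 0 had an unadjusted p under 0.05 in any of these, and DESeq2 and limma voom with sample weights called 0 as well. Among all 17840 genes the share called by edgeR was 0% in each of these comparisons. The share with an unadjusted p under 0.05 by edgeR was 3.65% in females, 5.44% in males and 4.3% over both sexes. DESeq2 did call genes in males and over both sexes, as given in the last section. In males 8 of the 9 had a fitted log2 fold change below 0, where 48.7% of all genes did, with a median of -0.09 against 0.01 for all genes. In females 3 of 9 were below 0, where 54.1% of all genes were. For each of the 10 members exposed and control lambs overlapped in both sexes. Among all genes 0% separated in females, and in males 0.0168% had every exposed lamb below every control and 0.0392% every one above. Without lamb 8778, 6 of the 9 were below 0 in males with a median of -0.03, and YAP1 was at 0.03 and LATS1 at 0.04.

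**Figure D3:**
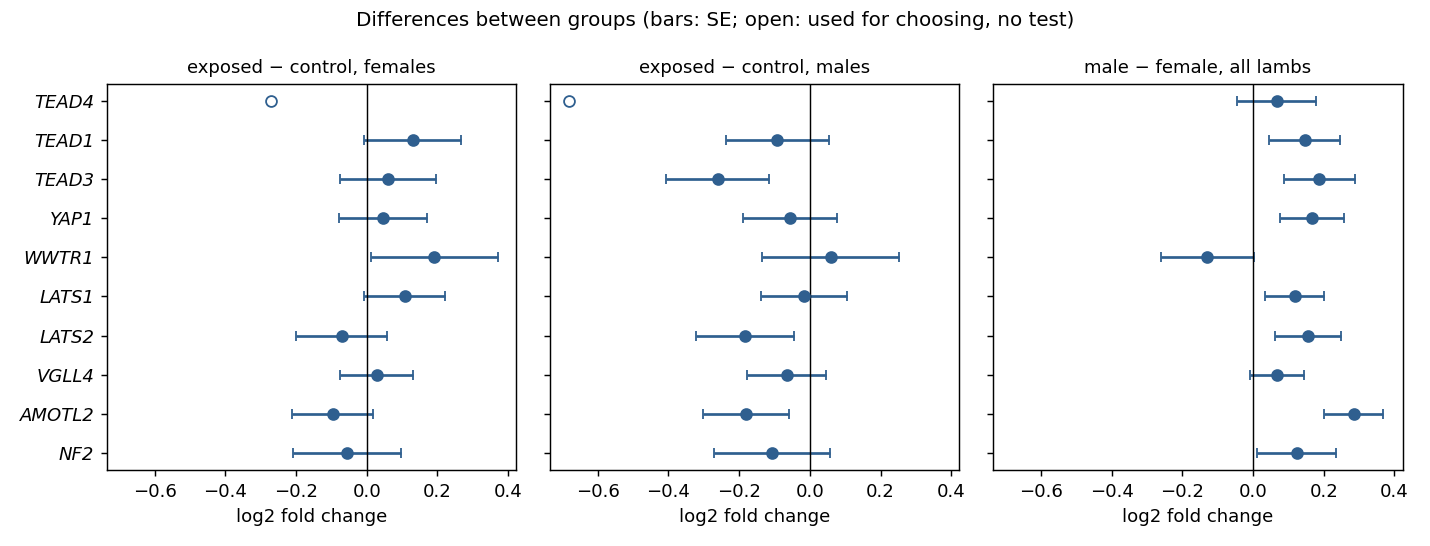
Log2 fold changes (x axes) of the 10 genes (y axis) for exposure in females, exposure in males, and males against females over all lambs; bars are standard errors, and open circles without bars are the TEAD4 values that guided its choice. AMOTL2 is highest for sex at 0.28, and the exposure values of the other 9 genes lie between -0.26 and 0.19.

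The interaction compared the effect of exposure in males with that in females. Of the members other than TEAD4, 9 of 9 had a lower fitted effect in males, where 46.6% of all genes did, with a median difference of -0.11 log2 units against 0.03 for all genes. The median was -0.06 without lamb 8778, and -0.04 with 7 of 9 below 0 without lambs 8778 and 8263 together. TEAD4 differed by -0.41, given without a test since the male values helped to choose it. TEAD3 differed by -0.32 ± 0.20 and TEAD1 by -0.22 ± 0.20 (SE, edgeR adjusted p = 0.951 for both). By that test 0 of the other 9 passed, where 0% of all genes did, and 0 had an unadjusted p under 0.05, where 3.63% of all genes did. DESeq2 and limma voom called 0 of them.

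For sex, AMOTL2 had the smallest p of the members. It was at 63.7 ± 10.1 CPM in the 14 males and 52.3 ± 7.40 CPM in the 16 females (SD). The lowest, median and highest levels were 41.2, 66.3 and 77.4 CPM in males and 42.8, 49.6 and 66.1 CPM in females. Thus 13 of 14 males lay above the female median, and the exception was lamb 8778. The log2 fold change of 0.28 ± 0.08 (SE) had an unadjusted p of 0.00178 and an edgeR adjusted p of 0.169, so it did not pass. Adjusted p by the same test was 0.0649 without lamb 8778, 0.199 without control male 8408 and 0.219 without control female 8263. It was 0.0567 by DESeq2 and 0.0109 by limma voom with sample weights, where AMOTL2 passed.

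By edgeR's quasi-likelihood test 0 of 10 members passed for sex, where 0.118% of all genes did, and 1, AMOTL2, had an unadjusted p under 0.05, where 19.6% of all genes did. DESeq2 called 0 members and limma voom 1 of 10, where limma voom called 18.6% of all genes. YAP1 was at 70.6 ± 10.9 CPM in males and 63.0 ± 9.14 CPM in females (SD, n = 14 and 16), with 12 of 14 males above the female median. LATS2 had 11 of 14 males above it, and NF2 12 of 14. WWTR1 was the exception in direction, at 11.1 ± 1.72 CPM in males and 12.1 ± 3.71 CPM in females. In all, 9 of 10 members had a log2 fold change above 0 towards males, where 46.2% of all genes did, with a median of 0.14 against -0.02.

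The wider pathway was followed in lists of nuclear effectors, core kinases and scaffolds, upstream regulators and target genes, which hold the members as well. Among nuclear effectors, TEAD2 was at 11.6 ± 2.48 CPM in control and 11.9 ± 1.95 CPM in biosolids males (SD, n = 7 each), with a log2 fold change of 0.04 ± 0.18 (SE). VGLL3, another cofactor of TEAD proteins, was scarce, between 0.259 and 0.560 CPM as group means, and its log2 fold change towards males was -0.75 ± 0.37 (SE, edgeR adjusted p = 0.263). VGLL1 and VGLL2 were too low to be tested. Of the 7 tested nuclear effectors other than TEAD4, 4 were below 0 in males and 1 in females, where 48.7% and 54.1% of all genes were. None of the 7 passed for exposure by edgeR, DESeq2 or limma voom, where edgeR called 0% of all genes. An unadjusted p under 0.05 was seen for 0 of the 7, where 3.65% of all genes had one in females, 5.44% in males and 4.3% over both sexes.

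None of the core kinases and scaffolds passed for exposure by edgeR, DESeq2 or limma voom, where edgeR called 0% of all genes. An unadjusted p under 0.05 was seen for 0 of 7, where 3.65% of all genes had one in females, 5.44% in males and 4.3% over both sexes. In males 4 of 7 were above 0, where 51.3% of all genes were, with a median log2 fold change of 0.15 against 0.01. Without lamb 8778 the median was 0.05, with 5 of 7 above 0. SAV1, the scaffold that joins the kinases, was at 13 ± 2.07 CPM in biosolids and 11.2 ± 2.58 CPM in control males (SD, n = 7 each), at 0.20 ± 0.12 (SE). STK4, an upstream kinase of the LATS proteins, was at -0.26 ± 0.14 in females and -0.21 ± 0.11 over both sexes (SE, edgeR adjusted p = 1.0 and 0.943).

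Of 27 upstream regulators, 21 were below 0 in exposed males, where 48.7% of all genes were, with a median of -0.12. In exposed females 12 were below 0, where 54.1% of all genes were, with a median of 0.01. WWC1, the scaffold KIBRA that works with NF2, was at 107 ± 16.9 CPM in control and 79.6 ± 26.2 CPM in biosolids males (SD, n = 7 each). On the log2 scale it differed by -0.43 ± 0.20 (SE, edgeR adjusted p = 0.816). AJUBA, a LIM protein that inhibits LATS kinases, was at 30.8 ± 9.36 CPM in control and 24.0 ± 4.74 CPM in biosolids males (SD, n = 7 each), at -0.36 ± 0.17 (SE). These were the 2 of 27 with an unadjusted p under 0.05 in males, a share near the 5.44% of all genes, and 0 passed by edgeR, DESeq2 or limma voom. The count was also 21 of 27 without lamb 8778. WTIP, another LIM protein, was at 0.25 ± 0.15 in females (SE, edgeR adjusted p = 1.0).

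Target genes of YAP1 and TEAD proteins were below 0 for 16 of 20 tested in males, where 48.7% of all genes were, with a median of -0.14. In females 14 of 20 were below 0, where 54.1% of all genes were, with a median of -0.06. CCN1, a secreted matrix protein and a standard readout of YAP1 activity, ranged from 9.48 to 26.4 CPM with a median of 16.5 CPM in control males. In biosolids males it ranged from 7.20 to 15.3 CPM with a median of 10.9 CPM. The log2 fold change was -0.60 ± 0.27 (SE, edgeR adjusted p = 0.816). In females CCN1 was at 9.61 ± 3.18 CPM without and 10.4 ± 4.97 CPM with exposure (SD, n = 8 each), so the mean was highest in control males. CCN2, the other standard readout, did not share this layout: it was at 9.32 ± 3.90 CPM in control and 8.70 ± 1.97 CPM in biosolids males (SD, n = 7 each), and at 12.7 ± 5.42 CPM in control and 10.5 ± 4.36 CPM in biosolids females (SD, n = 8 each). FJX1, a secreted kinase homologue, was at -0.70 ± 0.35 in males and AXL, a receptor tyrosine kinase, at -0.18 ± 0.11 over both sexes (SE). By edgeR's quasi-likelihood test 0 of 20 target genes passed in either sex, where 0% of all genes did, and DESeq2 and limma voom called 0. By the edgeR test 1 had an unadjusted p under 0.05 in males, where 5.44% of all genes did, and 0 in females, where 3.65% did. GADD45A, a stress response gene, was at 0.29 ± 0.20 in exposed females (SE, edgeR adjusted p = 1.0). ANKRD1 and FOXF2 were too low to be tested. With lamb 8778 left out, 21 were tested and 16 of them were below 0 in males. In the interaction ARHGEF17 was at -0.49 ± 0.23 (SE), the 1 of 20 target genes with an unadjusted p under 0.05 there, where 3.63% of all genes had one (edgeR adjusted p = 0.951).

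Towards males, 26 of 27 upstream regulators and 15 of 20 target genes had a log2 fold change above 0, where 46.2% of all genes did. The medians were 0.12 and 0.13. WWC3 was at 0.25 ± 0.09 and WWC1 at 0.38 ± 0.14 (SE, edgeR adjusted p = 0.195 and 0.201). IGFBP3, an IGF-binding protein and target gene, was at 635 ± 173 CPM in control males and 410 ± 132 CPM in control females (SD, n = 7 and 8). Its log2 fold change over both exposures was 0.57 ± 0.19 (SE, edgeR adjusted p = 0.188). MOB1B, a LATS coactivator of the core list, was at -0.31 ± 0.12 (SE) with an edgeR adjusted p of 0.202, and 3 of the 7 core genes and 5 of the 8 nuclear effectors were above 0. No upstream regulator or target gene passed by edgeR or DESeq2, where edgeR called 0.118% of all genes. At an unadjusted p under 0.05 there were 8 of 27 and 5 of 20, where 19.6% of all genes were, and limma voom with sample weights called 7 and 6, where it called 18.6% of all genes. Without lamb 8778 the count of upstream regulators above 0 was again 26.

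**Figure D4:**
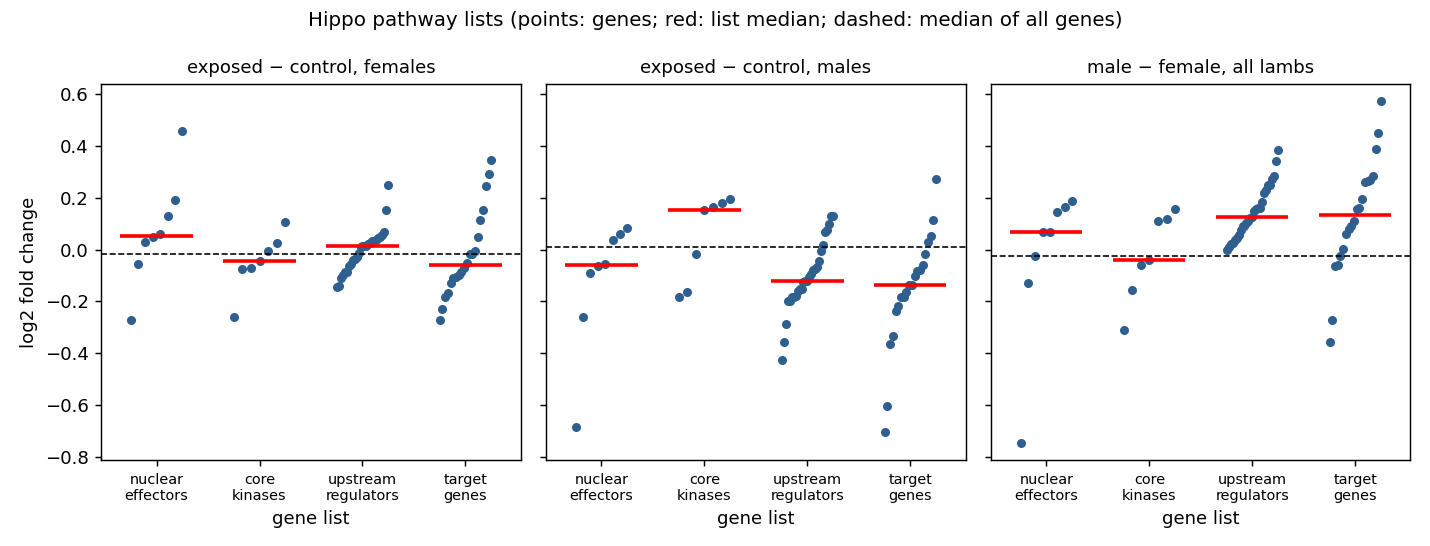
Log2 fold changes (y axis) of single genes (points) in 4 Hippo pathway lists (x axis) for exposure in females, exposure in males and males against females; red bars are list medians and dashed lines the median of all genes. In the sex panel 26 of 27 upstream regulators lie above 0. The nuclear effectors and their medians include TEAD4, at -0.68 in the male exposure panel, whose exposure values guided its choice.

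Covariation among lambs of the same group was a measure the choice of genes did not use. These relations among the other 9, and those with depth and markers, were chosen after the data had been seen. Log2 CPM values (prior count 2) were taken minus the group mean in all 30 lambs and tested by two-sided permutation within groups. The strongest positive relation among the 9 members other than TEAD4 was that of YAP1 with LATS2, its own inhibitory kinase and target gene (r = 0.73, rho = 0.68, permutation p = 7e-05, adjusted p = 0.00072 over 36 pairs). It was 0.58 without lamb 8778 and 0.59 without the 2 lambs farthest from the median of YAP1. LATS1 with TEAD1 followed (r = 0.72, rho = 0.57, permutation p = 8e-05, adjusted p = 0.00072), at 0.65 without lamb 8778 and 0.66 without the 2 farthest lambs.

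LATS2 also covaried with NF2 (r = 0.68, rho = 0.76, permutation p = 5e-05, adjusted p = 0.00072), a relation that was 0.84 without lamb 8778 and 0.75 without the 2 farthest lambs. TEAD3 went with LATS2 (r = 0.66, rho = 0.76, permutation p = 0.00033, adjusted p = 0.00195) and with NF2 (r = 0.68, rho = 0.65, permutation p = 8e-05, adjusted p = 0.00072). Without lamb 8778 these were 0.80 and 0.68, and without the 2 farthest lambs 0.60 and 0.63. WWTR1 ran against the others: its r was negative with all 8, and the relation with NF2 was the strongest (r = -0.55, rho = -0.54, permutation p = 0.0019, adjusted p = 0.00855), at -0.55 without lamb 8778 and -0.43 without the 2 farthest lambs. Of the 36 pairs, 16 passed an adjusted p of 0.05 by Pearson r, 13 positive and 3 negative. By Spearman rho 11 passed, 1 of them negative, and 10 passed by both. The median r was 0.39, or 0.32 without lamb 8778. The median r of each member with all other tested genes lay between -0.05 and 0.03. Positive and negative values offset each other in such a median, so it does not show how other sets of genes covary. That was not tested.

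TEAD4 passed with none of them. Its highest r was with AMOTL2 (r = 0.41, rho = 0.43, permutation p = 0.0206, adjusted p = 0.309 over 15 relations), at 0.36 without lamb 8778 and 0.43 without the 2 farthest lambs, control male 8394 and control female 8263. Its r with YAP1 was -0.05 (rho = 0.02, permutation p = 0.781) and with TEAD1 0.06 (rho = 0.05, permutation p = 0.761). Without lamb 8778 the r with YAP1 was -0.24. Within single groups r with YAP1 ran from -0.67 in control females to 0.71 in biosolids males, the group of lamb 8778. With TEAD1 it ran from -0.36 in control males to 0.82 in biosolids males. These values within groups were not tested. The median r of TEAD4 with the other 9 was 0.21. With the 6 marker lists r lay between -0.07, for hepatocyte markers, and 0.32, for endothelial markers (permutation p = 0.0913, adjusted p = 0.338), and 0 of the 15 relations passed.

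**Figure D5:**
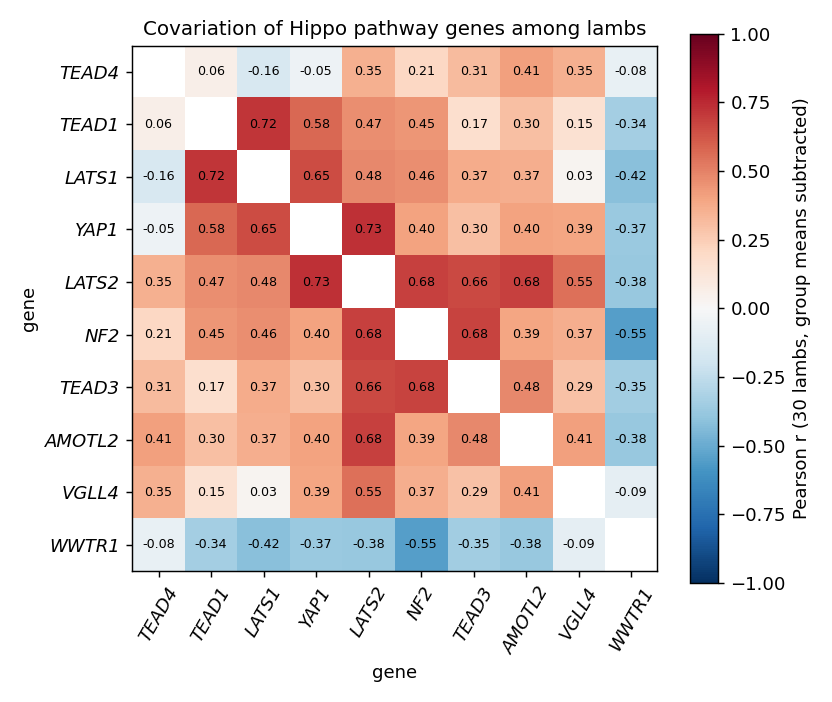
Pearson r (colour and number) between log2 CPM of each pair of the 10 genes over 30 lambs with group means subtracted. The row of TEAD4 lies between -0.16 and 0.41, the row of WWTR1 is negative throughout, and LATS2 with YAP1 reaches 0.73.

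Depth and the summed levels of cell type markers were also set against each member other than TEAD4. Counts outside ribosomal RNA correlated with LATS2 (r = 0.64, rho = 0.46, permutation p = 0.00928, adjusted p = 0.0391 over 72 relations), at 0.31 without lamb 8778 and 0.37 without the 2 farthest lambs. They also went with TEAD1 (r = 0.60, permutation p = 0.00077, adjusted p = 0.0139) and LATS1 (r = 0.51, permutation p = 0.0025, adjusted p = 0.0257), at 0.43 and 0.39 without lamb 8778. Leaving out that lamb took NF2 from 0.17 to 0.51 and WWTR1 from -0.12 to -0.42. It took YAP1 from 0.64 to 0.18 and AMOTL2 from 0.53 to 0.22. LATS1 went with hepatocyte markers (r = 0.61, rho = 0.64, permutation p = 0.00056, adjusted p = 0.0134) and against macrophage markers (r = -0.63, rho = -0.56, permutation p = 0.0003, adjusted p = 0.0134). Without the 2 farthest lambs these were 0.50 and -0.50. TEAD3 went with cholangiocyte markers (r = 0.58, rho = 0.60, permutation p = 0.00101, adjusted p = 0.0145), at 0.54 without the 2 farthest lambs. WWTR1 went against hepatocyte markers (r = -0.58, rho = -0.47, permutation p = 0.00437, adjusted p = 0.035), at -0.42 without the 2 farthest, but did not pass by rho (adjusted permutation p = 0.0527). LATS2 went with endothelial markers (r = 0.63, permutation p = 0.00038, adjusted p = 0.0134). These links were not particular to 1 gene. By Pearson r LATS2 (0.52), AMOTL2 (0.53) and NF2 (0.46) also passed with cholangiocyte markers, and NF2 (0.55), AMOTL2 (0.49) and TEAD1 (0.47) with hepatocyte markers. Of the 72 relations 20 passed by Pearson r. The part of depth and of these cell types in the covariation of the members was not tested.

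The genes most like TEAD4 over the 30 lambs, by Pearson r of log2 CPM with group means subtracted among the 12025 named genes that averaged 1 CPM or more, were CSF1 (r = 0.67), MNT (r = 0.64), TGIF2 (r = 0.64), JUNB (r = 0.63) and BCL2 (r = 0.63). CSF1 is the growth factor of macrophages, and MNT, TGIF2 and JUNB are transcription factors. Without lamb 8778 they ranged from 0.61 to 0.65. At the other end were CENATAC, THAP12, LRRCC1 and TIMM8A, with r between -0.64 and -0.61. The median over all 12025 genes was 0.04, and AMOTL2, the member most like TEAD4, ranked 472. The genes named were picked as the ends of this ranking and were not tested, so a relation beyond chance is not shown.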

How the data were processed

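Per the labels' protocols, RNA from frozen liver was isolated with a column kit, and libraries made with a TruSeq RNA kit were sequenced on a NovaSeq S4 flow cell. The authors deposited whole-number gene counts, not normalized; they used featureCounts 1.5.0-p3 and STAR, besides Trimmomatic, MultiQC and FastQC, per the submitters' processing notes, and the settings, strand included, are not given in the sources used here. Exon lengths are as deposited, per the file headers. 7 genes broken over 25 lines were rejoined, and 28862 rows matched RefSeq symbols. 0 columns were left without a lamb.

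Tests ran in edgeR 4.0.16 under R 4.3.3: filterByExpr, TMM scaling, 1 model with a mean for each of 4 groups, robust quasi-likelihood tests with 26 residual degrees of freedom, and Benjamini-Hochberg adjustment over 17840 genes. CPM uses TMM-scaled library sizes. The fit was tested on simulated data. Correlations used 100000 resamples in Python. Genes named were the 10 members, of each list those past an adjusted p of 0.05 or, with none, the 2 of lowest p, and the 5 most and 5 least like TEAD4, of which 1 is not reported here. TEAD2 and CCN2, and the tests among the other 9 members and with depth and markers, were added after values were seen. The members and lists were chosen with earlier results of these data known.

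Alternatives were RLE scaling, DESeq2 1.42.0, limma 3.58.1 voom with sample weights, no filter on low counts, a filter of 1 CPM in 15 libraries, ribosomal RNA rows left out, an additive model, and leaving out lambs.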

Additional observations from a re-analysis of the deposited data

Results flagged for a closer look

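LATS1 in control male 8408 was at 27.4 CPM, the lowest of its group, where the next lamb had 36.4 CPM and the median was 40.8 CPM. The gap to the next lamb was 0.629 of the group's range, which marks the lamb as far from the others. 40 groups of values were checked this way and 1 was marked, where chance marks about 1 in 20 groups. This is the male that also held LOC101112291 at 302 CPM.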

How the results depend on the processing

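No paired analysis was possible because the 4 groups share no lamb tags or replicate numbers. The counts of genes called by edgeR were 0 for exposure in females, in males and over both sexes and for the interaction, and 21 for sex. DESeq2 called 4 in males, 4 over both sexes and 1 in the interaction. For sex DESeq2 called 106 and limma voom with sample weights 3327, and 11 were called among genes with at least 1 CPM in 15 libraries. Leaving out 1 lamb gave 20 to 51 genes for sex, with 51 without biosolids male 8778 and 47 without biosolids male 8735. The cause was not tested.

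Values of TEAD4 kept their sign under all settings run, between -0.76 and -0.57 in males and between -0.36 and -0.18 in females. These fits reuse the counts that guided its choice, so the stable sign is not independent evidence of a difference. Members close to 0 changed sign. Without lambs 8778 and 8263 together YAP1 was at -0.021 in females, 0.034 in males, 0.0065 over both sexes and 0.056 in the interaction, LATS1 at 0.040 in males, LATS2 at 0.0053 in the interaction and VGLL4 at 0.0057 over both sexes. Without lamb 8778 alone YAP1 was at 0.034 in males and 0.043 over both sexes, LATS1 at 0.040 in males and VGLL4 at 0.0015 over both sexes. Without lamb 8263 alone YAP1 was at -0.023 in females and NF2 at 0.0047 in the interaction. Without lamb 8408 TEAD1 was at -0.015 and VGLL4 at 0.012 over both sexes. Over both sexes YAP1 was at 0.0074 with no low-count filter, 0.012 with at least 1 CPM in 15 libraries, 0.0034 without ribosomal RNA rows and 0.0025 by DESeq2. LATS1 in males was at 0.0082 with at least 1 CPM in 15 libraries and 0.011 by limma voom, which gave VGLL4 0.0091 over both sexes. The r of TEAD4 was -0.056 with TEAD1 and -0.022 with stellate cell and fibroblast markers without lamb 8778, and 0.039 with YAP1 and 0.060 with hepatocyte markers where group means were kept. At the other end of the values with 1 lamb left out, over both sexes TEAD1 was at 0.062, YAP1 at -0.033 and VGLL4 at -0.0075, in females YAP1 at 0.052, in males YAP1 at -0.073 and LATS1 at -0.082, and NF2 at -0.081 in the interaction. The depth of library 8778, with 40 counts of TEAD4, limits the values in exposed males.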
